A study of Drosophila melanogaster with 2 samples.

Results

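The translation initiation and elongation factor genes of Drosophila melanogaster were examined in a chromatin immunoprecipitation and sequencing (ChIP-seq) experiment on Nf-YA. The members were the protein-coding genes whose symbol starts with eIF or eEF, which gave 52 of the 13945 protein-coding genes on the 6 chromosome arms. Of these, 44 were initiation factor genes (eIF) and 8 were elongation factor genes (eEF). No measured value entered their choice, although earlier results of these data were known when they were chosen.

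The samples were whole embryos aged 0 to 24 h from transgenic flies expressing an Nf-YA-eGFP fusion (strain Nf-YA-GFP). Per the sample descriptions the fusion was precipitated with an anti-GFP antibody, although the antibody label reads Nf-YA, from chromatin sonicated to 200 to 800 bp, in 2 biological replicates that formed 1 group, with no record of sex. The labels name a possible control, which was not analysed here, and they do not say how the fusion is driven or whether untagged Nf-YA remained. Every tissue and the whole of embryonic development were pooled, so binding in few cells and weak binding in many cannot be told apart.

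Initiation factors bring the small ribosomal subunit, the initiator tRNA and the mRNA together, find the start codon and let the large subunit join. Elongation factors then deliver aminoacyl-tRNAs to the ribosome and move it along the message. Growing cells need the general factors in quantity, but the members also include paralogs, a repressor and a factor for selenocysteine only. Nf-YA is the subunit of the trimeric factor NF-Y that reads the CCAAT box, and in mammals NF-Y binds promoters of many cell cycle and housekeeping genes.

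The promoter sequences show what the members carry at the places where peaks lay. All come from the NCBI RefSeq genome of assembly Release 6 (dm6 coordinates), 5′ to 3′ on the strand of the gene, in lower case with the motifs in capitals. The eEF1gamma window (chr3R:29220072-29220201, plus strand) runs from 100 bases before its upstream start site to 30 after it, and the eIF3a window (chr3R:4433866-4433955, minus strand) from 60 before to 30 after. In both, the capitals mark TATCGATA, the DNA replication-related element (DRE) bound by the factor Dref. The eIF1 window (chr3L:3222958-3223058, plus strand) covers 50 bases on each side of the summit, also with a DRE. That summit lay 48 bp from the start of RpL28 and 333 bp from that of eIF1. The eIF4E1 window (chr3L:9402483-9402583, minus strand) also covers 50 bases on each side of its summit. Its capitals mark TATAAA, the letters of a TATA box, read from the other strand. The 30 bases of eEF2 (chr2L:21682102-21682131, minus strand) surround its downstream start site, with TCTTT, the core of the polypyrimidine initiator found at ribosomal protein genes, in capitals. The eIF4A window (chr2L:5981664-5981793, plus strand), from 100 before to 30 after the start site, is shown as a contrast, since this promoter has a DRE and the TCTTT core but no peak in the pooled list. The eIF4EHP window (chr3R:24109146-24109246, minus strand) covers 50 bases on each side of the summit of its tall ranked entry, described below. Its capitals mark 2 matches to TATAAA, of which 1 is read from the other strand, and CCAAT read from the other strand.
eEF1gamma: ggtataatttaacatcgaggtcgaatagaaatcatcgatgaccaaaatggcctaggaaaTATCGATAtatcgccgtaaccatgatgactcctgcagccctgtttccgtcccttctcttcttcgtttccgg
eIF3a: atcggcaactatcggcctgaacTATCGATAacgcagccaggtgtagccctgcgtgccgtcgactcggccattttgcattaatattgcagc
eIF1: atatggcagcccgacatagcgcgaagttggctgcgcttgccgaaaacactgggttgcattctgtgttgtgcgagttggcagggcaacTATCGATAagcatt
eIF4E1: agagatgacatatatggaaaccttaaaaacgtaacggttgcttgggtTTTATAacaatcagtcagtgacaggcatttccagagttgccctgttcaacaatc
eEF2: gtcgctgcagcgcctcgcTCTTTcctgtcg
eIF4A: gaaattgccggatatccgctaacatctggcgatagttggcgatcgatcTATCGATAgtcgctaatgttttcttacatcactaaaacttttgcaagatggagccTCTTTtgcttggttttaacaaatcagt
eIF4EHP: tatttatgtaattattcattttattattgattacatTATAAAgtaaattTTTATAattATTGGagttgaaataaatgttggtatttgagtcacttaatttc

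Bound genes are those with an annotated start site within 500 bp of a summit of the pooled thresholded list, which the authors made from both replicates. In this sense 11 of the 52 members were bound (21.2%, exact 95% interval 11.1 to 34.7), beside 12.5% of all protein-coding genes (1737 of 13945), a share within that interval. Elongation factor genes gave 4 of 8 (50%, 15.7 to 84.3) and initiation factor genes 7 of 44 (15.9%, 6.64 to 30.1). The interval of the elongation factors lay above the share of all genes, and that of the initiation factors held it. Within 100 bp of a start site the members gave 8 of 52 (15.4%, 6.88 to 28.1), beside 4.05% of protein-coding genes, and there the share of all genes lay below the interval. These intervals cover counting error only, and the difference between both roles was not tested.

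The own thresholded lists of the replicates were shorter and called fewer members. In the list of replicate 1 a summit lay at 6 of 52 members (11.5%), beside 7.54% of protein-coding genes, and in that of replicate 2 at 9 of 52 (17.3%), beside 9.14%. The elongation factors gave 3 of 8 in replicate 1 and 4 of 8 in replicate 2, and the initiation factors 3 and 5 of 44. The elongation share was thus 37.5% and 50% in the lists of replicates 1 and 2, and the initiation share 6.82% and 11.4%.

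Each replicate also had a ranked list, which holds entries with no threshold applied, and gives a value for most members. The signal of an entry was computed by the authors in a unit given nowhere in the files, and is read here against other entries of the same list. Entries within 500 bp of a start site were found in both replicates for 37 of 52 members (71.2%), beside 63.3% of protein-coding genes. The entries of a gene in both lists need not be at the same site. Entries in the top 10% of both lists by signal were found for 13 members (25.0%), beside 16.2% of protein-coding genes. Of these 13, 5 were among the 8 elongation factors (62.5%, 24.5 to 91.5) and 8 among the 44 initiation factors (18.2%, 8.19 to 32.7). The depth of the libraries is unknown, so no precision from read counts can be given.

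**Figure D1:**
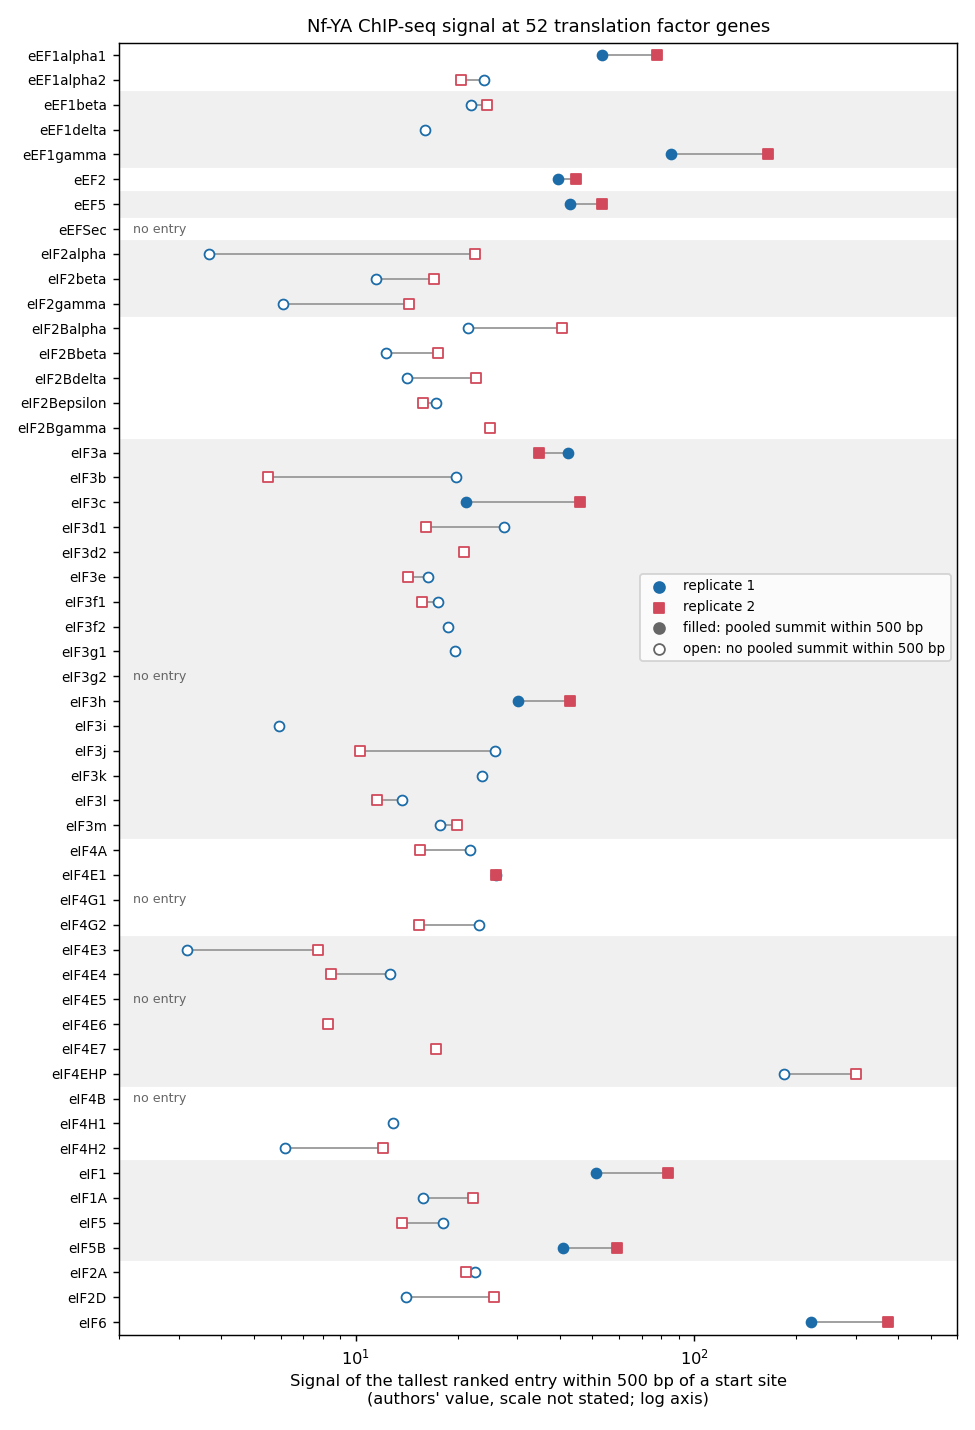
Signal of the tallest ranked entry within 500 bp of a start site of each of the 52 members, in replicate 1 (circles) and replicate 2 (squares), on a log axis with no stated unit. Filled symbols are the 11 members with a pooled summit within 500 bp, grey and white bands separate the complexes, and eIF6 (221 and 375) and eIF4EHP (184 and 301) lie furthest to the right.

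Among the elongation factors, the tallest peak was at eEF1gamma (FBgn0029176), the structural subunit of the exchange factor that recharges eEF1A with GTP. Its ranked signal was 85.4 in replicate 1 and 165 in replicate 2, and the pooled signal was 246, place 259 of 3354. The summit on 3R at 29220144 lay 28 bp upstream of the start site, and peaks of both own lists overlapped it. The exchange subunits of the same complex were not bound. eEF1beta had 21.8 and 24.4 in the replicates, and eEF1delta had 16 in replicate 1 and no entry in replicate 2. Within this complex, then, eEF1gamma was far taller than either partner in each list that held both.

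eEF1alpha1 (FBgn0284245) encodes the GTPase that delivers aminoacyl-tRNAs to the ribosome. Its ranked signals were 53.4 and 77.6 and its pooled signal was 124, place 970. The summit on 2R at 11892029 was in an intron, 93 bp upstream of an internal start site, and both own lists held a peak there. The other gene of this GTPase, eEF1alpha2, had ranked signals of 23.8 and 20.5 and was not bound. In both replicates eEF1alpha1 was thus the taller of the paralogs.

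eEF2 (FBgn0000559), the GTPase that moves the ribosome by a codon, had ranked signals of 39.6 and 44.6. The pooled signal was 84.0, place 1807, and both own lists held a peak there. The summit on 2L at 21682083 lay in the 5′ untranslated region, 33 bp downstream of the start site whose TCTTT core is printed above. eEF5 (FBgn0285952), the fly counterpart of the hypusine-bearing factor eIF5A of mammals, had ranked signals of 42.9 and 53.3 and a pooled signal of 97.5, place 1421. Its summit on 2R at 24057790 was 8 bp upstream of the start site, the closest of all members, and overlapped a peak of replicate 2's own list but none of replicate 1's. eEFSec, the elongation factor for selenocysteine, had no entry in either ranked list. The 4 bound elongation factors thus held places 259 to 1807 of the pooled list, and at none of them did another gene have a nearer start site.

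Among the initiation factors, the tallest peak was at eIF6 (FBgn0034915), which binds the large ribosomal subunit, keeps it from joining the small one too early and acts in making that subunit. Its ranked signals were 221 and 375, places 51 and 26 of the lists, and its pooled signal was 595, place 34 of 3354. The summit on 2R at 23850403 was 102 bp upstream of the start site, and 73 bp from the start of an antisense RNA gene, asRNA:CR45928, on the opposite strand. Both own lists held a peak there. It was the tallest bound member in each list.

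Factors of start-codon choice and subunit joining gave 2 bound genes of 4. eIF1 (FBgn0035423), which guards the choice of start codon, had ranked signals of 51.3 and 83.8, a pooled signal of 133 (place 852) and a peak in both own lists. Its summit on 3L at 3223008 was 333 bp upstream, however, and only 48 bp from the start of RpL28, a ribosomal protein gene on the opposite strand. eIF5B (FBgn0026259), the GTPase of subunit joining, had 41.0 and 59.2, with a pooled signal of 99.4 (place 1387) and a peak in the own list of replicate 2. Its summit on 3L at 3460668 lay in an intron, 65 bp upstream of an internal start site. eIF1A, the partner of eIF1, had 15.8 and 22.2. eIF5, which makes eIF2 hydrolyse its GTP, had 18.1 and 13.7. Both unbound genes were lower than both bound ones in each replicate.

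The scaffold complex eIF3, which holds the small subunit and the mRNA factors together, had 16 genes including paralogs, of which 3 were bound. eIF3a (FBgn0037249), a core subunit, had ranked signals of 42.5 and 34.8 and a pooled signal of 79.1, place 1977. Its summit on 3R at 4433991 was 96 bp upstream, with the start of CG1074 nearer at 26 bp, and neither own list held a peak there. eIF3h (FBgn0022023) had 30.2 and 42.9 and a pooled signal of 76.8, place 2045, with a peak in the own list of replicate 2. That summit, on 2L at 5052506, was 274 bp downstream of an internal start site, in an intron, and 337 bp from the start of senju. eIF3c (FBgn0034258), a second core subunit, had 21.2 and 46.0 and a pooled signal of 56.8, place 2988. The summit on 2R at 17665660 was 18 bp upstream, and only the own list of replicate 2 held a peak there. The 3 bound eIF3 genes were all below the median signal of the pooled list, 87.4.

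The other 13 eIF3 genes were not bound. The tallest entries were at eIF3d1, with 27.4 in replicate 1 and 16.1 in replicate 2, and at eIF3j, with 25.8 and 10.3. Both genes stood high in replicate 1 alone. eIF3b, e, f1, l and m had entries in both lists between 5.49 and 19.9. eIF3f2, g1, i and k had an entry in replicate 1 only (5.94 to 23.6), eIF3d2 in replicate 2 only (20.8), and eIF3g2 in neither. By place in the lists, eIF3b (top 12.6% and 88.5%) and eIF3j (top 5.30% and 65.2%) differed most between the replicates. eIF3e (22.3% and 42.5%), f1 (18.4% and 35.9%) and l (33.4% and 57.8%) stood lower in replicate 2. Only eIF3m (17.8% and 19.4%) was close in both.

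In the cap-binding complex eIF4F, 1 of 4 genes was bound. eIF4E1 (FBgn0015218), the main cap-binding protein, had ranked signals of 26 and 26 and a pooled signal of 45.6, place 3181, near the end of the list. The summit on 3L at 9402533 was 73 bp upstream, and neither own list held a peak there. A second pooled summit with a signal of 7.65 lay 288 bp upstream. eIF4A, the RNA helicase of the complex, had 21.7 and 15.5, eIF4G2, a paralog of the scaffold protein, had 23.2 and 15.4, and the scaffold gene eIF4G1 had no entry in either list. eIF4E1 was the tallest of the 4 in both replicates, but by a small margin in replicate 1.

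The complexes that handle the initiator tRNA had no bound gene. eIF2, the GTPase that carries that tRNA, had its 3 genes at 3.68 to 11.5 in replicate 1 and 14.3 to 22.4 in replicate 2. eIF2B, which recharges eIF2 with GTP and is held back when eIF2 is phosphorylated under stress, had 5 genes, with 12.3 to 21.4 in replicate 1 over 4 of them and 15.8 to 40.6 in replicate 2. The highest was eIF2Balpha, with 21.4 and 40.6, in the top 9.75% and 2.16% of the lists. Its entry in replicate 2, 293 bp from the start site, was close to the threshold of the own lists, with a score of 799 where the lowest score kept was 830. In the pooled ranked list the start of Vps13B was nearer this summit, at 201 bp against 291 bp for eIF2Balpha. eIF2A and eIF2D, which in mammals can bring tRNA to the ribosome without eIF2, were not bound either. The entries of eIF2A, 22.5 and 21.1, were above the medians over all protein-coding genes with an entry, 17.0 in replicate 1 and 19.3 in replicate 2, and eIF2D had 14.1 and 25.6.

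The helicase cofactors eIF4B, eIF4H1 and eIF4H2 were not bound, and the highest entry among them was 12.9, at eIF4H1 in replicate 1. eIF4B had no entry in either list, and its nearest pooled summit was 3134336 bp away on 3L. Of the paralogs of the cap-binding protein, eIF4E3, eIF4E4, eIF4E6 and eIF4E7 had entries of 3.17 to 17.3 and eIF4E5 had none. All were below the medians over protein-coding genes, unlike the remaining gene of this family, eIF4EHP.

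eIF4EHP (FBgn0053100) encodes a cap-binding protein that represses translation of chosen mRNAs in the fly embryo. Its ranked signals were 184 and 301, places 76 and 48, in the top 0.0791% and 0.0414% of the lists, second among the members to eIF6. The pooled ranked list holds an entry of signal 495 with its summit on 3R at 24109196, 236 bp upstream of the start site and 140 bp from the start of CG18428 on the other strand. The score of this entry is 1000, as it is in each replicate. The own thresholded list of replicate 1 holds a peak there, but the pooled, conservative and replicate 2 thresholded lists used here hold none, and by the rule the gene therefore counts as not bound. Why these lists lack the entry was not tested.

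The same was true of a small share of entries elsewhere. On the arms, 91 of 3445 pooled ranked entries with a score of at least 830 (2.64%) were not in the pooled thresholded list, of which 57 were on 3R and 25 on 2L. Only 1 member, eIF4EHP, lay within 500 bp of such an entry, among 44 protein-coding genes. With these entries counted, 12 of 52 members were bound (23.1%), beside 12.8% of protein-coding genes.

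Most unbound members were far from any pooled summit, with a median distance of 11892 bp, beside 14167 bp over the 12208 unbound protein-coding genes. No summit lay within 10000 bp of 23 of the 41. On either side of the limit of 500 bp were eIF1, at 333 bp, and eIF2Bbeta, at 685 bp. The summit near eIF2Bbeta was the tallest of the pooled list, with a signal of 1299, and lay 34 bp from the start of Ugalt, whereas the ranked entries within 500 bp of eIF2Bbeta itself were 12.3 and 17.5. The next were eIF3d1 at 1262 bp (signal 170, with GILT2 at 118 bp) and eIF3g1 at 1330 bp (signal 127, with Smyd3 at 130 bp). All 3 of these summits had the start of another gene within 130 bp.

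The ranked entries of unbound members were close to those of other unbound genes. Their median signal was 17.4 in replicate 1 and 16.5 in replicate 2, beside 15.2 and 17.4 over unbound protein-coding genes with an entry. Entries were found in both lists for 26 of the 41, in replicate 1 alone for 6, in replicate 2 alone for 4 and in neither for 5 (12.2%, beside 14.8% of unbound protein-coding genes). Only eIF4EHP, eIF2Balpha and eEF1beta were in the top 10% of both lists (3 of 41, 7.32%), beside 5.50% of unbound protein-coding genes. eIF2A and eEF1alpha2 came next, in the top 16.2% and 17.8% of the list where each was lower.

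The order of the members was compared between the replicates. Across the 11 bound members the ranked signals gave a Spearman rho of 0.818, and across the 26 unbound members with both entries a rho of 0.229. These are correlations across genes of the same 2 libraries. The tallest entry was taken in each replicate separately, so the 2 values of a gene can come from different sites. At the unbound eIF4A, for example, the summits were at 5982303 in replicate 1 and 5981601 in replicate 2. The pooled list that defines the bound members was itself made from both replicates, so the values are not compared with each other. By signal the entry was taller in replicate 2 for 10 of the 11 bound members, all but eIF3a. That is also the direction of 77.3% of bound protein-coding genes (1332 of 1723). The lists need not share a scale, and at eIF4E1 the signals were nearly equal (25.97 and 25.98). By place within each list, 9 of the 11 stood higher in replicate 2. Peaks of both own lists overlapped the summit's peak at 5 members, eEF1gamma, eEF1alpha1, eEF2, eIF1 and eIF6. Only the list of replicate 2 did so at 4, and neither list at 2, eIF3a and eIF4E1. Summits of both own lists were found at 45.5% of the bound members and at 48.5% of bound protein-coding genes.

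The bound members were neither high nor low as a group. Their median pooled signal was 97.5, beside 102 over bound protein-coding genes, and their median place in the list was 1421, beside 1320. The signals ran from 45.6 at eIF4E1 to 595 at eIF6, and 6 of the 11 lay in the upper 50% of the list. eIF6 and eEF1gamma stood clear of the others, whose signals lay between 45.6 and 133.

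**Figure D2:**
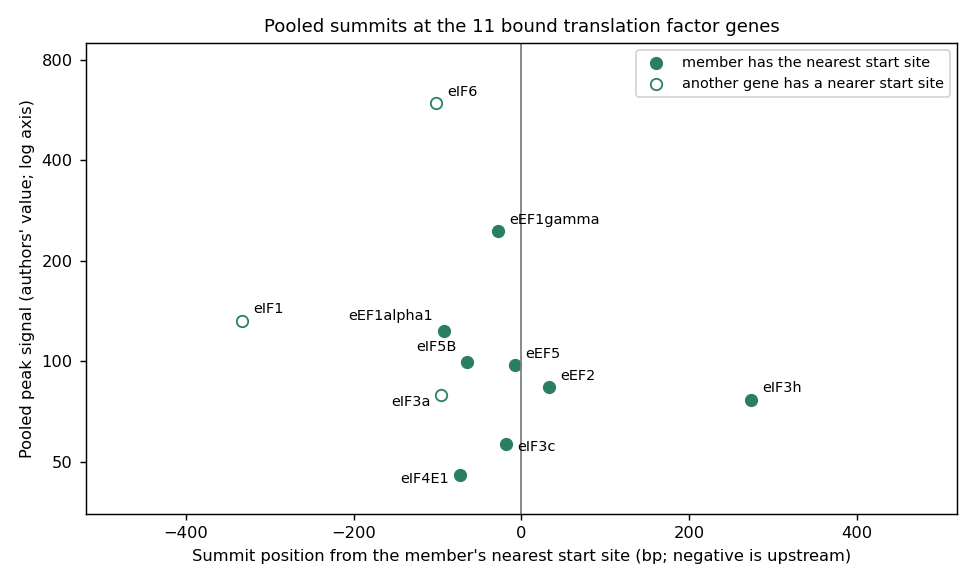
Pooled peak signal (log axis, authors' value) against the position of the summit from the nearest start site of each of the 11 bound members, in bp, with negative values upstream. Open circles are the 3 members with a nearer start site of another gene, and 9 of the 11 summits lie within 110 bp of the start site, with eIF1 (333 bp upstream) and eIF3h (274 bp downstream) apart.

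Member summits were close to start sites, mostly just upstream. The median distance to the member's own start site was 73 bp (8 to 333 bp), beside 141 bp over bound protein-coding genes. Over the 1561 promoter summits of the pooled list the median was 133 bp. That value is not a like measure, since it runs to the nearest start site of any annotated gene. In 9 of the 11 members the summit was upstream of the start site, and in eEF2 and eIF3h it was downstream. The mean GC content within 50 bp of the summit was 43.2% (SD 7.13, 11 summits), beside 38.3% (SD 12.6) over the promoter summits.

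A summit cannot always be given to the member. At eIF1, eIF3a and eIF6 another gene had a nearer start site, which left 8 of 52 members (15.4%, 6.88 to 28.1), beside 9.63% of protein-coding genes counted in the same way. All 4 elongation factors remained, and the initiation factors fell to 4 of 44 (9.09%, 2.53 to 21.7). Divergent genes, whose start sites lie on opposite strands within 1000 bp and point apart, were common among the members, at 26 of 52, beside 36.2% of protein-coding genes. Of the 26 divergent members 7 were bound, and of the other 26, 4. Among all protein-coding genes 19.7% of the divergent ones and 8.35% of the others were bound.

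Genes with several start sites have more chances to be called. The bound members had a mean of 2.09 annotated start sites and the unbound ones 1.32, beside 1.41 over all protein-coding genes. Of the 32 members with 1 start site 3 were bound, beside 9.11% of such protein-coding genes, and of the 20 with 2 or more, 8 were bound, beside 21.7%. With only 1 start site per gene used, 9 members were bound (17.3%), 3 of them elongation factors, beside 10.5% of protein-coding genes. By arm, bound members numbered 2 of 5 on 2L (beside 12.5% of its protein-coding genes), 4 of 13 on 2R (12.4%), 3 of 11 on 3L (13.8%), 2 of 15 on 3R (12.6%), 0 of 1 on 4 (6.25%) and 0 of 7 on X (10.7%). Differences between arms were not tested.

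Promoter sequence was read from 250 bases before to 50 after each start site, a window the rule did not use. A match describes the letters there and is not a binding site. CCAAT, sought on both strands, was in the window of 24 of 52 members (46.2%), beside 53.3% of all protein-coding genes. It was in 5 of the 11 bound members (45.5%), beside 58.0% of bound protein-coding genes. The long NF-Y motif, CCAAT with a pair of purines before it and C or G and then a purine after it, was found at eIF6, eIF5 and eEF1alpha2 (5.77%, beside 4.55%). Within 50 bp of the summit CCAAT was found at eIF6 only, 1 of 11, beside 19.0% of all promoter summits, and the long motif at none, beside 2.69%. At eIF6 the nearest CCAAT lay 36 bp from the summit.

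The DRE, TATCGATA, which reads the same on both strands, was more common in the members than in all genes. It was found at 15 of 52 (28.8%, 17.1 to 43.1), beside 10.2% of all protein-coding genes and 29.5% of 88 cytosolic ribosomal protein genes. Bound members held it in 4 of 11 cases, eEF1gamma, eIF3a, eIF3c and eIF6 (10.9 to 69.2%), beside 13.6% of bound protein-coding genes. Unbound members held it in 11 of 41 (26.8%). In eEF1gamma the element began 41 bp upstream of the start site, 6 bp from the summit, as printed above. In eIF3a it began 38 bp upstream and was 58 bp from the summit. Within 50 bp of summits the DRE was found at eEF1gamma and eIF1, 2 of 11, beside 1.67% of promoter summits. The element at eIF1 is the one printed. It is outside that gene's own promoter window, at a summit nearer the start of RpL28 (48 bp) than that of eIF1 (333 bp).

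Of 6 other promoter motifs, the members' share lay on the same side of that of all genes as the ribosomal protein genes' share in 5, all but TATAAA. The members' exact intervals for Motif 1 (8.23 to 30.3), GAGAG (17.1 to 43.1) and TATAAA (32.2 to 60.5) held the shares of all genes. The core of Motif 1, GGTCACAC, was in 9 of 52 members (17.3%), beside 8.71% of all and 17.0% of ribosomal protein genes. The TCTTT core, with its C within 5 bp of the start site on the sense strand, was in 5 members (9.62%), eEF2, eEF5, eIF3i, eIF3m and eIF4A, beside 2.23% of all genes and 51.1% of ribosomal protein genes. In all 5 members the C lay 4 or 5 bp from the annotated start, at the edge of that window. The initiator core TCAGT was in 2 members (3.85%, eEF1alpha2 and eIF2gamma), beside 14.0% of all and 1.14% of ribosomal protein genes. The E-box CAGCTG was in 5 (9.62%), beside 22.3% and 10.2%. GAGAG was in 15 (28.8%), beside 36.3% and 20.5%, and TATAAA in 24 (46.2%), beside 51.2% and 53.4%. Bound members held TATAAA in 8 of 11 cases (39.0 to 94.0%), beside 53.4% of bound protein-coding genes, and it lay within 50 bp of the summit in 3, eIF3a, eIF4E1 (2 bp away) and eIF6, beside 19.0% of promoter summits.

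**Figure D3:**
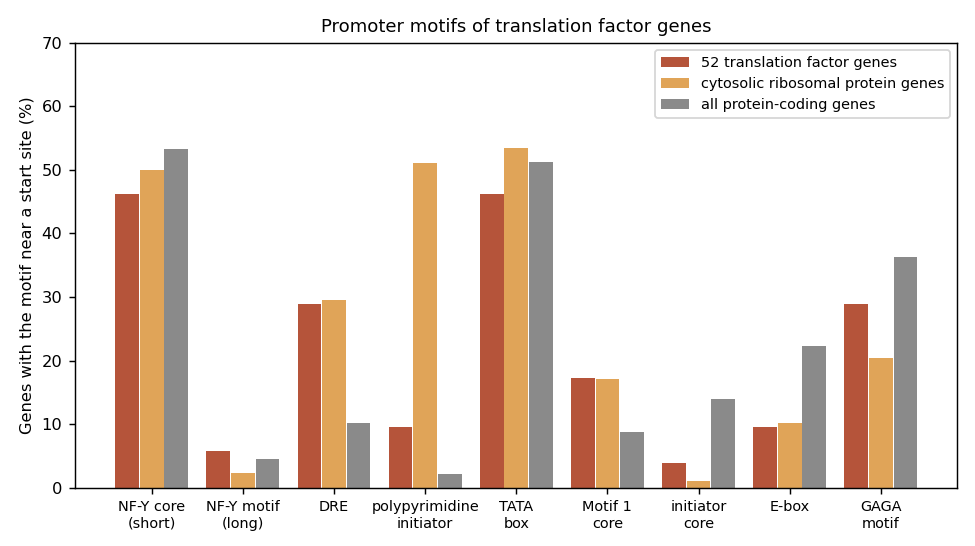
Share of genes (%) with each motif from 250 bases before to 50 after a start site, for the 52 members, 88 cytosolic ribosomal protein genes and all 13945 protein-coding genes, where the short NF-Y core is the CCAAT pentamer and both initiators are counted only within 5 bp of the start. The DRE bars of the members (28.8%) and the ribosomal protein genes (29.5%) stand above that of all genes (10.2%), and the polypyrimidine initiator is at 51.1% in ribosomal protein genes and 9.62% in the members.

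Other genes of translation gave a range of shares around those of the factors. Of 88 cytosolic ribosomal protein genes 53 were bound (60.2%, 49.2 to 70.5), with RpS27 (pooled signal 255), RpL7 (252) and RpL41 (216) the tallest, each near the height of eEF1gamma. Of 35 aminoacyl-tRNA synthetase genes, which charge tRNAs, 7 were bound (20%, 8.44 to 36.9), with GluProRS (176), IleRS (133) and SerRS (113) the tallest, though CG17260 had a nearer start at the last (15 against 23 bp). The helpers of elongation gave 2 of 7 (28.6%, 3.67 to 71.0), Dph1 (102) and Dph2 (99.8), which act in making the diphthamide residue of eEF2. The other helpers listed, further Dph genes and the hypusine genes among them, were not bound.

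Regulators of initiation were bound in a few cases. Of 14 cap and poly(A) regulators 3 were bound (21.4%), pAbp (112), the poly(A)-binding protein, Thor (91.6), the fly 4E-BP that sequesters eIF4E, and larp (89.0), a La-related RNA-binding protein. The tallest ranked entries within 500 bp of larp were 156 in replicate 1 and 244 in replicate 2, above its pooled signal. Why they differ was not tested. Of 10 signalling genes found in the annotation, 3 were bound (30%), Gcn2 (102), a kinase of eIF2alpha, crc (80.1), the fly ATF4, and S6k (54.4), the ribosomal protein S6 kinase. Ugt35D1 had a nearer start at the Gcn2 summit (131 against 225 bp), and Mondo at the crc summit (352 against 464 bp). Of 8 termination, recycling and quality control genes only pelo (65.5), a ribosome rescue factor, was bound (12.5%). None of 9 mitochondrial translation factor genes was bound, which allows a share of up to 33.6%. The intervals of all these lists but that of the ribosomal proteins held the 12.5% of all protein-coding genes, and differences between lists were not tested.

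**Figure D4:**
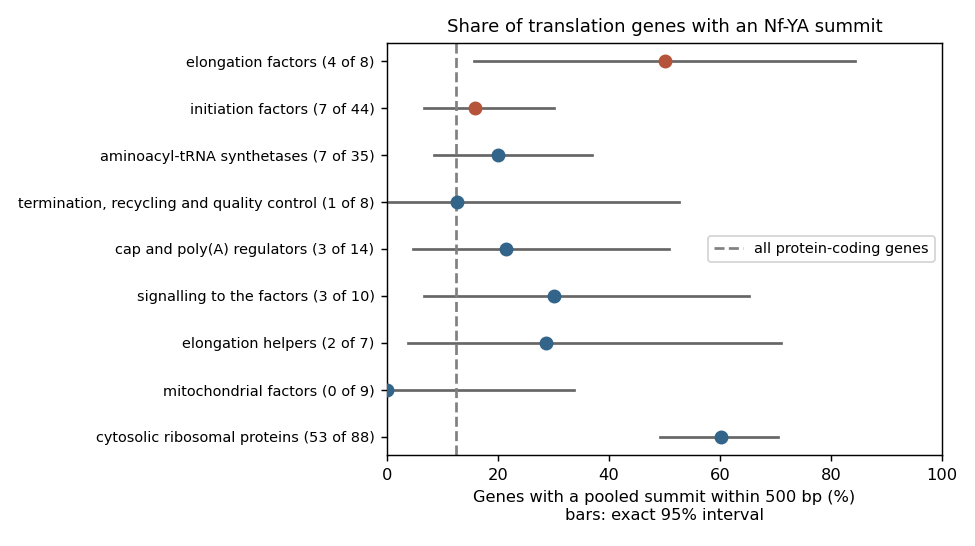
Share of genes (%) with a pooled summit within 500 bp in each list of translation genes, with exact 95% intervals that cover counting error only, and the share of all protein-coding genes (12.5%) as a dashed line. The elongation factors (50%, 4 of 8) and the ribosomal proteins (60.2%, 53 of 88) have intervals above that line, and the initiation factors (15.9%, 7 of 44) have one across it.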

How the data were processed

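ChIP-seq peak lists of 2 biological replicates were used in dm6 coordinates. Per the labels and file headers the authors deposited ranked and thresholded lists per replicate and for the series. Aligner, peak caller and versions are not given in the sources used here. Peak signal was deposited by the authors in an unstated unit. Their deposited score is a transform of the irreproducible discovery rate. Thresholded lists keep scores from 830, a rate of 0.01. The series' ranked lists hold 16 columns of unnamed inputs, which were not used. No reads were analysed, so depth is unknown.

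Summits on 6 arms were measured against every start site of protein-coding genes in Ensembl release 115 (BDGP6.54), and the closest start site within 500 bp was kept. Promoter summits and genes with a nearer start site were found with the start sites of annotated genes of any type. For ranked lists the tallest entry within 500 bp was taken, in each list separately. Sequences came from RefSeq Release 6. Shares have exact Clopper-Pearson intervals at 95%. No test was made, since there is 1 group. Of ribosomal protein symbols, those ending in "-like" were left out. The distance step was tested on 200 simulated summits placed within or beyond 500 bp, and all 200 calls matched the placed distance.

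Members and lists were chosen with earlier results of these data known. Every bound member was named, with unbound members that had an own thresholded peak or a summit between 500 and 2000 bp, the 5 unbound members best ranked in both replicates and the 3 tallest bound genes of each list. Alternatives were other distances, lists, start sites and windows. Scripts ran in Python 3.11.15 with pandas 2.3.3, scipy 1.17.1, numpy 2.4.6 and, for plots, matplotlib 3.10.9.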

Additional observations from a re-analysis of the deposited data

How the results depend on the processing

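The count of 11 bound members was 8, 9 and 12 with limits of 100, 250 and 1000 bp (beside 4.05%, 9.59% and 15.3% of protein-coding genes), 9 in the conservative list (11.6%), 11 with any base of a peak counted (13.6%) and 12 with high-scoring ranked entries added (12.8%), an alternative chosen after seeing the data. It fell to 6 in the upper 50% of peaks by signal (7.54%), and was 6 to 9 in the own lists (7.54% and 9.14%), each of which leaves out the other replicate. The initiation count of 7 was 4 within 100 bp, 3 in the upper 50% by signal, 3 to 5 in the own lists and 4 where no other gene had a nearer start site. The elongation count was 3 or 4 of 8 under every alternative. With 1 start site per gene it was 3 (37.5%), and the exact interval for 3 of 8, 8.52 to 75.5, held the 10.5% of protein-coding genes. Members with a ranked entry in both replicates numbered 14 within 100 bp (26.9%, beside 17.2% of protein-coding genes), against 37 within 500 bp (71.2%, beside 63.3%). The CCAAT count of 24 was 17 (32.7%, beside 32.0% of protein-coding genes) with 100 bases upstream and 32 (61.5%, beside 73.8%) with 500. The median summit distance was 66 to 103 bp in the other lists. No paired analysis was possible because there is 1 group. The unknown depth and the absence of an analysed control limit what a missing peak can show.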
